A study of Mus musculus with 20 samples.

Results

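The 2398 genomic regions described here were called for ISL1 with moderate reproducibility and were also called for POU4F1. Overlapping peaks of the 4 ISL1 lists on chromosomes 1 to 19, X and Y were merged into 214116 regions, of which 18866 had a peak in exactly 2 or 3 lists. A region was a member when it also overlapped a POU4F1 replicate 1 peak by at least 1 bp, which held for 2398 of the 18866 (12.7%). The other 16468 regions of 2 or 3 lists, without a POU4F1 replicate 1 peak, served as the main comparison. Because ISL1 list number and the POU4F1 replicate 1 call chose the members, values of those 5 libraries are given as description, without a test.

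The libraries were made by CUT&Tag, in which an antibody directs a transposase to a chromatin protein or histone mark so that adjacent DNA is released and sequenced. All came from nuclei of C57BL/6J mouse ganglia labelled CVG (the cochleovestibular ganglia hold auditory and vestibular neurons) at age E11.5, and neither genotype nor treatment distinguished the groups. Among the 20 libraries, 14 with a peak list were used: ISL1_26 (n = 1), ISL1_70 (n = 3), POU4F1 (n = 2), H3K27ac (n = 3), H3K27me3 (n = 3) and H3K4me3 (n = 2). The 6 IgG libraries were not used here, the meaning of the numbers 26 and 70 is open, and since nothing says that replicates came from separate embryos, p-values measure only the spread between libraries, which may be technical.

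ISL1 is a LIM homeodomain transcription factor and POU4F1 (also known as BRN3A) a POU homeodomain factor, and both are expressed by newly born neurons of cranial and spinal sensory ganglia, where they are required for subtype identity and survival. Such factors bind short DNA elements, often far from a gene start, and their bound sites are commonly read together with H3K27ac, a mark of active enhancers and promoters. H3K4me3 marks promoters and H3K27me3 marks chromatin repressed by Polycomb.

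The lists held 8855 to 168144 peaks for H3K27ac, 14140 to 39310 for H3K27me3, 24573 to 95719 for ISL1, and 34249 and 29096 for POU4F1. Read totals are not in the lists, so the depth behind each call is unknown. Of the 15785 peaks of the library labelled H3K4me3 replicate 1, 13.3% overlapped an H3K4me3 replicate 2 peak, but 87.4% overlapped one of H3K27me3 replicate 3, so H3K4me3 results below use replicate 2. Starts of neuronal marker genes carried H3K27ac in 11 of 11 cases, against 64.5% of all 21887 protein-coding genes, but the same 11 of 11 also carried H3K27me3 in at least 1 library, as did 9605 of all genes. Markers of other cell types carried H3K27ac too. It was at 11 of 15 Schwann cell and neural crest genes and 15 of 19 otic epithelium and hair cell genes. It was also at 14 of 18 mesenchyme genes and 8 of 14 endothelium and blood genes. H3K27me3 was at 12, 18, 14 and 6 genes of these lists, in the same order. What those cells contribute to the results below was not tested.

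Sequences are shown for 6 promoters in which the POU4F1 summit of a member lay before the gene start, because there the position of the factor can be set beside the DNA itself. They were chosen after their values were seen: Nhlh1 belongs to a list of sensory neuron genes, Tef held the strongest POU4F1 peak of the 65 protein-coding promoters considered, Ptges2 had close ISL1 and POU4F1 summits in a region of 3 ISL1 lists, Pou3f2 carried H3K27me3 in every H3K27me3 library, and Slc7a14 and Top3b held motif matches. Each line gives the 250 bases before the annotated start, 5′ to 3′ on the gene's strand, from RefSeq promoters of build GRCm38.p6. Capitals mark matches, on either strand, to 5 motifs. TAATTA, and likewise TAATTG, and also TAATGG, as well as ATTAAT, hold the TAAT core typical of homeodomain sites, and ATGCAT holds letters of the kind read by POU-specific domains.
Nhlh1 (chr1:172057597-172057846, minus strand): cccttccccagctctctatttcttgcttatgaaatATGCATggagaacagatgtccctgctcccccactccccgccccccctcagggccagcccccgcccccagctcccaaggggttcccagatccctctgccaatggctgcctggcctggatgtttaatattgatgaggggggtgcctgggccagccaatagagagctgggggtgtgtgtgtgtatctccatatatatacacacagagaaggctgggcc
Tef (chr15:81811164-81811413, plus strand): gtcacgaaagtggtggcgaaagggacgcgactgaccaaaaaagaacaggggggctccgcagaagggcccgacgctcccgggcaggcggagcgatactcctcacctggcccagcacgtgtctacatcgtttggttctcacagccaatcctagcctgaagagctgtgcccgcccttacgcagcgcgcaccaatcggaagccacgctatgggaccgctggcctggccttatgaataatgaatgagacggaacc
Ptges2 (chr2:32395640-32395889, plus strand): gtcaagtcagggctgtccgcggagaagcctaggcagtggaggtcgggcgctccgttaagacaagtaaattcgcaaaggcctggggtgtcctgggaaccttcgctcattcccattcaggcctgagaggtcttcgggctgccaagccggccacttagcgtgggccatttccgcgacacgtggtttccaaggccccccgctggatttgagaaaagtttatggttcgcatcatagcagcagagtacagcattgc
Pou3f2 (chr4:22488367-22488616, minus strand): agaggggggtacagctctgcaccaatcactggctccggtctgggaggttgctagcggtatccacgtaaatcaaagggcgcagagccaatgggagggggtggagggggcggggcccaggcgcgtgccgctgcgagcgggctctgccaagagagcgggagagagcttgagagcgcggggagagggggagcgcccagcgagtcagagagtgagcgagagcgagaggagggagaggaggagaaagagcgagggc
Slc7a14 (chr3:31310320-31310569, minus strand): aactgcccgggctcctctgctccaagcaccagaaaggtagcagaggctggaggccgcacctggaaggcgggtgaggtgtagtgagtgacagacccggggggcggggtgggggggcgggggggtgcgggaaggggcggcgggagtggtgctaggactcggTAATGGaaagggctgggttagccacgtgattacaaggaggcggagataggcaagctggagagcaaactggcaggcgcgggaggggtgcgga
Top3b (chr16:16870486-16870735, plus strand): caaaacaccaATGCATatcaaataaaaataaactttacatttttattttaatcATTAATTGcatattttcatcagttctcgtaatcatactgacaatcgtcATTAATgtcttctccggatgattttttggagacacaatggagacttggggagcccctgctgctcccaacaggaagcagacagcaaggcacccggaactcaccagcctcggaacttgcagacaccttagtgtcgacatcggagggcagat

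In the Nhlh1 promoter, of a basic helix-loop-helix factor of young neurons, the POU4F1 summit lay 97 bases before the start and 118 bases from the first base of the only match, ATGCAT. In Tef, which encodes a PAR bZIP factor, the summit lay 245 bases before the start, and none of the 5 motifs was in the 250 bases shown. The summit lay 41 bases before the start of Ptges2, a prostaglandin E synthase gene, and 165 bases before that of Pou3f2, a POU homeodomain factor of neural progenitors, again with no match. In Slc7a14, an amino acid transporter family gene, the only match in the bases shown, TAATGG, began 70 bases from the summit. Top3b, which encodes a topoisomerase, had the most matches: ATTAAT began 4 bases from the summit, and an overlapping ATTAAT (44 bases) and TAATTG (42 bases) lay on the other side of it. These 6 therefore ran from no match to 4, and a window without a match says only that these letters are absent from it. POU4F1 replicate 2 had no peak in the member at any of these 6 promoters.

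Such letters were found at a minority of promoters with a member. Of 32817 promoters in the table (250 bases before to 50 after a start, both strands searched), 425 overlapped a member and 89 held a member's POU4F1 replicate 1 summit, and some of these are alternative or divergent promoters of the same region. At least 1 of the 5 motifs was found in 15 of the 89 (16.9%, 95% Wilson interval 10.5 to 26), in 17.4% of the 425 and in 24.1% of all promoters. Promoters with a member were richer in G+C, with a median of 62.3% against 52.7% in all promoters. They were therefore compared with 2197 promoters whose median G+C was 62%. These overlapped an ISL1 region of 2 or 3 lists without POU4F1 replicate 1. Any of the 4 motifs with TAAT was found in 16% of the 425 and in 12.3% of these 2197. That combined difference was not tested.

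Against those, 1 of 10 motifs differed with a 95% interval that excluded 0. TAATGG was present in 38 of 425 promoters with a member (8.94%) and in 5.01% of the others, a difference of 3.93 percentage points (1.07 to 6.8, not adjusted for the 10 motifs). In all promoters TAATGG stood at 7.72%. TAATTA (2.35% against 2.46%), TAATTG (6.35% against 5.01%), ATTAAT (2.12% against 2%) and ATGCAT (1.65% against 2.91%) had intervals that included 0. So did CAGCTG and CAGATG, E-box letters of basic helix-loop-helix factors (15.1% against 15.3%, and 13.4% against 12.3%), CCCNNGGG, the core of EBF sites (20.5% against 18.3%), the AP-1 letters TGANTCA (3.76% against 4.23%), and the SP and KLF letters GGGCGG (62.6% against 66.5%). TAATTA shares letters with the motif ATTAAT, so a single stretch can match both.

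Most members, like most comparison regions, rested on the first library of each ISL1 group. Of the 2398, 1615 (67.3%) had a peak in 2 ISL1 lists and 783 (32.7%) in 3. ISL1_26 replicate 1 contributed a peak to 2078 members (86.7%), ISL1_70 replicate 1 to 1914 (79.8%), ISL1_70 replicate 2 to 749 (31.2%) and ISL1_70 replicate 3 to 838 (34.9%). In the comparison regions these shares were 79.2%, 72.6%, 25.2% and 40.2%. The pair ISL1_26 replicate 1 with ISL1_70 replicate 1 alone accounted for 937 members (39.1%) and for 39.8% of comparison regions. When a library was left out and 2 of the other lists still required, 1068 members remained without ISL1_26 replicate 1, 1204 without ISL1_70 replicate 1, 2075 without ISL1_70 replicate 2 and 2015 without ISL1_70 replicate 3. With POU4F1 replicate 2 in place of replicate 1 the rule gave 624 regions.

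**Figure D1:**
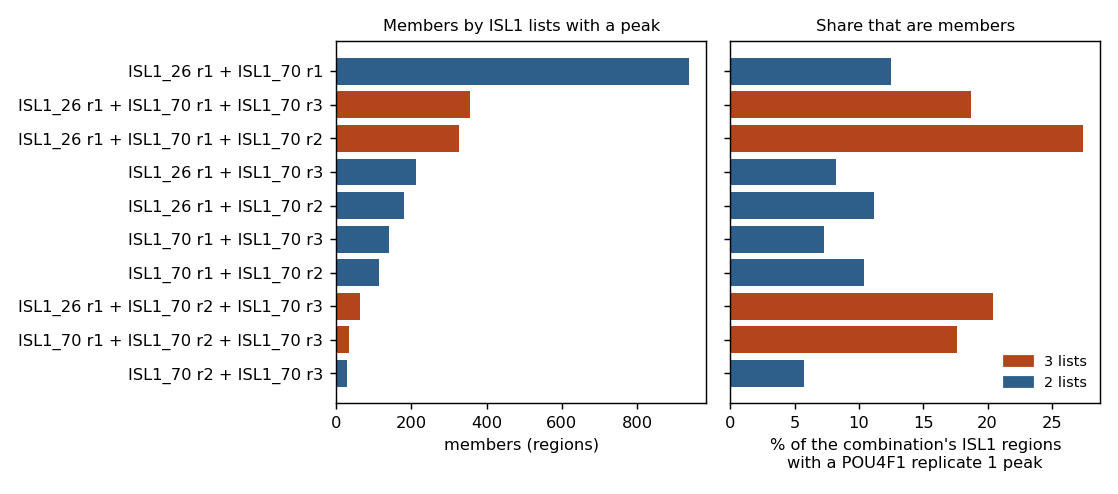
Members by the combination of ISL1 lists with a peak (left, number of regions) and the share of all ISL1 regions of that combination with a POU4F1 replicate 1 peak (right, percent); r1 to r3 are replicates, and colours separate regions of 2 and 3 lists. The pair ISL1_26 r1 and ISL1_70 r1 holds 937 members, and the share is highest, at 27.4%, for those libraries with ISL1_70 r2.

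Members were wider and held better ranked ISL1 peaks than the comparison regions. Their median width was 1039 bp (range 310 to 4037), against 828 bp without POU4F1 replicate 1 and 1752 bp for the 533 regions of all 4 lists with it. Peak rank was taken as the percentile by −log10 p within a list, 0 being the strongest. The best ISL1 peak of a member had a median percentile of 11.3 in ISL1_26 replicate 1, 13.7 in ISL1_70 replicate 1, 36 in ISL1_70 replicate 2 and 53 in ISL1_70 replicate 3. In the comparison regions the medians were 29.6, 33.1, 43.1 and 47.7, so ISL1_70 replicate 3 was the one library in which members ranked lower.

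POU4F1 peaks in members had better ranks than those without ISL1. Of the 34249 POU4F1 replicate 1 peaks, 2444 (7.14%) lay in members, at a median percentile of 32.3 (quartiles 7.97 and 64.3), while 26624 overlapped no ISL1 peak and had a median of 51.8. Peaks in ISL1 regions of 1 list had a median of 46.1, and those in regions of 4 lists one of 23. A single POU4F1 peak was present in 2338 members, and 60 held more. The overlap rule itself keeps the summits of the factors near each other, and no expected distance was computed. From the best POU4F1 summit to the nearest ISL1 summit the median was 157 bp (quartiles 64.25 and 328). These summits lay within 100 bp in 875 members (36.5%). To the summit of the best ranked ISL1 peak the median was 273 bp. The POU4F1 summit fell inside the ISL1 region in 1855 members (77.4%).

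**Figure D2:**
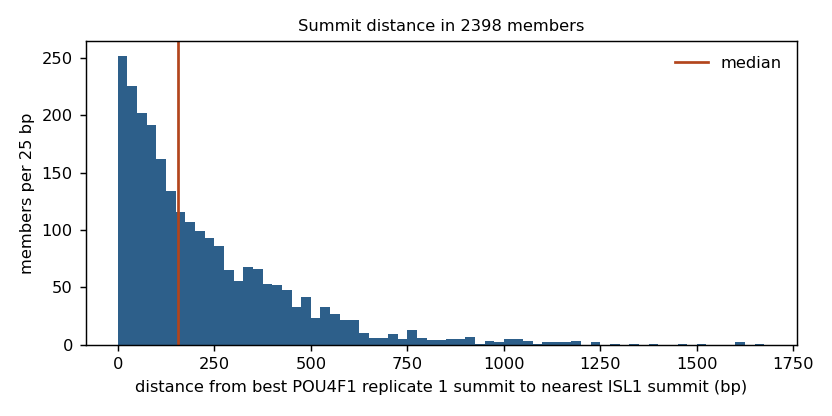
Distance in bp from the best POU4F1 replicate 1 summit to the nearest ISL1 summit (horizontal axis) for the members, as the number of members per 25 bp (vertical axis), with the median as a line. Counts are highest next to 0 bp, the median is 157 bp and the largest distance 1651 bp.

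The overlap rule admitted a few members by a narrow margin. The overlap was 1 bp at the least, with a median of 420 bp and was under 10 bp in 37 members. On the other side of the rule, 72 comparison regions lay within 50 bp of a POU4F1 replicate 1 peak and 140 within 100 bp.

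H3K27ac was found at members more often than at ISL1 regions of like width and list number without POU4F1. At least 1 of the 3 H3K27ac libraries had a peak in 1990 of 2398 members (83%, 95% Wilson interval 81.4 to 84.4), against 10299 of 16468 comparison regions (62.5%, 61.8 to 63.3), where 65.1% of all 18866 regions carried one. The Mantel-Haenszel odds ratio over strata of list number and width decile was 2.17 (95% interval 1.94 to 2.44). Intervals here cover counting error of regions, which are not replicates. A comparison was called when this interval excluded 1.

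All 3 H3K27ac libraries pointed the same way. In replicate 1, the shortest list, 9.88% of members and 6.79% of comparison regions had a peak (odds ratio 1.27, 1.09 to 1.47). In replicate 2 the shares were 73.7% and 51.6% (1.98, 1.79 to 2.19), and in replicate 3 they were 72.7% and 51% (1.95, 1.76 to 2.15). An exact two-sided sign-flip permutation test over the 3 libraries gave p = 0.25, the smallest that 3 libraries allow (0.625 after Benjamini-Hochberg adjustment over 5 such tests). With members defined by POU4F1 replicate 2 in place of replicate 1, 76.9% of 624 regions carried H3K27ac against 64.7% of the rest (1.56, 1.28 to 1.91). Because members held better ranked ISL1 peaks, strata of list number, width and ISL1 rank were added after the data were seen, and the odds ratio was 1.85 (1.65 to 2.08).

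**Figure D3:**
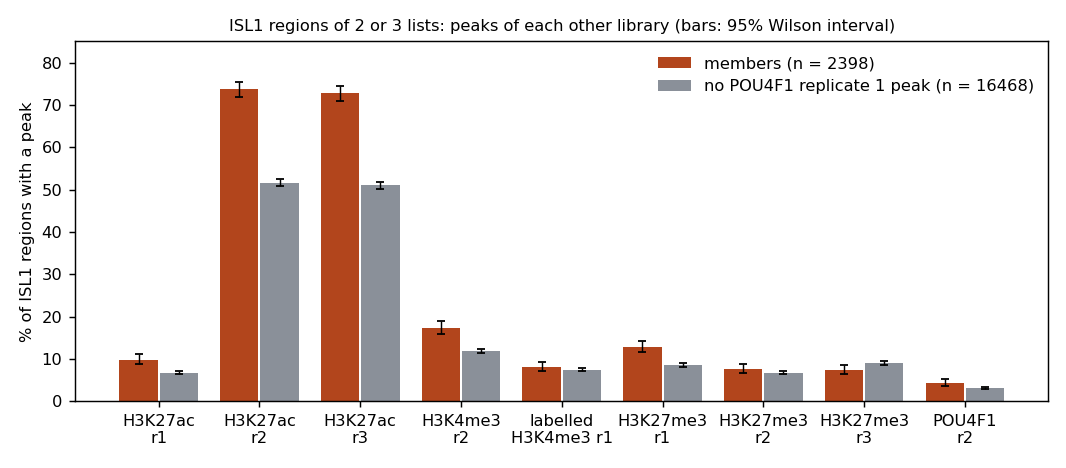
Percent of members and of ISL1 regions of 2 or 3 lists without a POU4F1 replicate 1 peak (vertical axis) that have a peak of each other library (horizontal axis); error bars are 95% Wilson intervals and cover counting error only. The bars of H3K27ac r2 stand at 73.7% and 51.6%, whereas those of H3K27me3 r3 stand at 7.42% and 9.11%.

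The difference in H3K27ac was present in each kind of place. Within 1 kb of an annotated gene start, 95% of 421 members and 87.6% of comparison regions carried the mark (odds ratio 2.33, 1.47 to 3.69). Inside genes the shares were 82.5% of 1020 members and 64.6% (1.81, 1.52 to 2.16). Outside genes they were 78.2% of 957 members and 51.3% (2.55, 2.16 to 3.02). The mark was also more frequent at wide members: it was present in 72.2%, 78.6%, 88.2% and 93% of members in 4 equal groups from the narrowest to the widest.

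**Figure D4:**
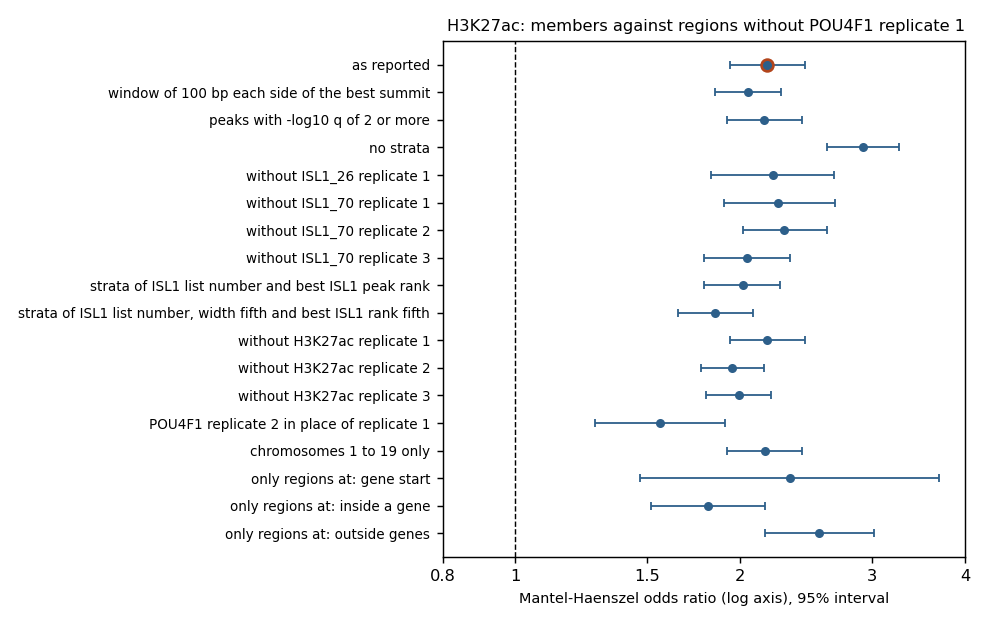
Mantel-Haenszel odds ratio of an H3K27ac peak, members against ISL1 regions without POU4F1 replicate 1 (horizontal log axis), with 95% intervals, as reported (large point) and under each alternative (vertical axis); the dashed line marks 1. Every interval lies above 1, and the values run from 1.56 to 2.92.

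Seen from POU4F1, peaks in members differed widely in the mark from peaks with no ISL1 peak. POU4F1 peaks in ISL1 regions of 1 list (4722) or of 4 lists (575) were not part of this comparison. H3K27ac overlapped 1948 of the 2444 POU4F1 replicate 1 peaks in members (79.7%, 78.1 to 81.3) and 5220 of the 26624 POU4F1 peaks with no ISL1 peak (19.6%, 19.1 to 20.1). Over strata of peak width the odds ratio was 14.1 (12.7 to 15.7), with 8.81, 14.1 and 10.9 in H3K27ac replicates 1, 2 and 3 (exact sign-flip permutation p = 0.25, adjusted 0.625). POU4F1 peaks without ISL1 were also lower in rank, as given above, and the part of rank in this difference was not tested.

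Members called in 3 ISL1 lists carried H3K27ac more often than those in 2 lists. The shares were 710 of 783 (90.7%) and 1280 of 1615 (79.3%), with an odds ratio over width strata of 1.67 (1.25 to 2.23). H3K27ac replicates 2 and 3 had higher shares in members of 3 lists (85.1% against 68.2%, and 80.8% against 68.8%), while replicate 1 had a lower one (8.68% against 10.5%, odds ratio 0.706, 0.513 to 0.97). The exact two-sided sign-flip permutation p was 0.5 (adjusted 0.625). Against the 533 regions of all 4 lists with POU4F1, members had the mark less often in share, 83% against 94.6%. At equal width the odds ratio was 0.658 with an interval of 0.428 to 1.01, which includes 1 (exact sign-flip permutation p = 0.5, adjusted 0.625). H3K27ac replicate 1 went the other way, with 9.88% of members and 5.25% of the 4-list regions. The interval excluded 1 without H3K27ac replicate 1 (0.645), without replicate 2 (0.635) and close to the ISL1 summit (100 bp on either side, 0.704), and the odds ratio was 0.884 (0.646 to 1.21) without replicate 3.

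H3K4me3 was found at a small part of the members. Replicate 2 had a peak in 417 members (17.4%, 15.9 to 19) and in 11.9% of comparison regions, where 12.6% of all regions had one, for an odds ratio of 1.31 (1.17 to 1.48). This call was lost without ISL1_70 replicate 1 (1.15, 0.96 to 1.38). It was lost as well with the library labelled H3K4me3 replicate 1 in its place (8.13% against 7.47%, odds ratio 1.05, 0.895 to 1.23; 7.55% of all regions). The mark followed the gene starts in both classes, at 69.6% of members and 60% of comparison regions there, 7.55% and 4.51% inside genes, and 4.91% and 2.39% outside.

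H3K27me3 showed no difference of one direction. It was present in 445 members (18.6%) and in 15.8% of comparison regions, with 16.1% in all regions, and the odds ratio was 1.09 (0.972 to 1.22). In replicate 1 members were higher (12.9% against 8.66%, odds ratio 1.26, 1.11 to 1.45), in replicate 2 the interval included 1 (1.1, 0.929 to 1.29), and in replicate 3 members were lower (7.42% against 9.11%, 0.792, 0.672 to 0.933). The exact sign-flip permutation p was 0.75 (adjusted 0.75). Without replicate 1 the odds ratio was 0.936, without ISL1_26 replicate 1 it was 0.96, and without replicate 3 it was 1.2 (1.07 to 1.35). At gene starts 53.2% of members and 50.3% of comparison regions carried H3K27me3 in at least 1 library (odds ratio 1.04, 0.843 to 1.29).

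By the marks together, 1593 members (66.4%) carried H3K27ac without H3K27me3, 397 (16.6%) both, 48 (2%) H3K27me3 alone and 360 (15%) neither. In the comparison regions the shares were 51.1%, 11.4%, 4.34% and 33.1%. Both marks over 1 region can come from different cells of the dissected tissue or from the same cells, which cannot be told apart.

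The second POU4F1 library, which took no part in the choice of members, overlapped few of them. It had a peak in 105 members (4.38%, 3.63 to 5.27) and in 519 comparison regions (3.15%), with 3.31% in all regions. The odds ratio was 1.2 with an interval of 0.966 to 1.5, so the difference was not called. Within 100 bp of the best ISL1 summit it was 1.51 (1.13 to 2; 2.59% against 1.67%), and without ISL1_26 replicate 1 it was 1.4. The other members rest on POU4F1 replicate 1 alone.

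Members lay at gene starts slightly more often than the comparison regions. The shares were 421 of 2398 (17.6%) and 14.8%, with 15.2% in all regions, and the odds ratio was 1.14 (1.02 to 1.28). This call was lost on leaving out any of the 4 ISL1 libraries (1.02 without ISL1_26 replicate 1, 1.03, 1.06 and 1.08 without ISL1_70 replicates 1, 2 and 3). Another 1020 members (42.5%) were inside genes and 957 (39.9%) outside, near the 43.9% and 41.2% of comparison regions. The median distance to the nearest gene end was 31.8 kb, and 637 members (26.6%) were over 100 kb away. These distances were not computed for the comparison regions.

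Members were ranked by the mean percentile over the 4 ISL1 lists and POU4F1 replicate 1, with an absent peak counted as 100. This score keeps members of 2 lists from the top, so by construction the leading 10 were called in 3 ISL1 lists. None of the leading 10 lay at a gene start. The first, on chr10:34700943-34702749, was 89.7 kb from Frk, a tyrosine kinase gene. Its peaks stood at percentiles 0.0219, 0.305 and 0.334 in ISL1_26 replicate 1 and ISL1_70 replicates 1 and 2, and at 0.315 for POU4F1, with summits 7 bp apart. No H3K27ac, H3K27me3 or H3K4me3 library had a peak there, unlike at the other 9 of the leading 10. POU4F1 replicate 2 had no peak at any of the leading 10, and POU4F1 percentiles here and below are those of replicate 1.

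The second, chr6:40018511-40020440, was inside Tmem178b, which encodes a transmembrane protein. It held a POU4F1 peak at percentile 0.0117 (a 366-fold enrichment in the authors' list) and summits 28 bp apart, with H3K27ac in replicates 2 and 3. Inside Mbnl1, an RNA-binding splicing regulator, a member at chr3:60527167-60528386 had summits 3 bp apart and a POU4F1 percentile of 0.22. Inside Dnm3, a dynamin gene expressed in neurons, a member at chr1:162026325-162028357 had ISL1 percentiles of 0.691, 0.66 and 1.05 and a POU4F1 percentile of 5.7. Further leading members lay inside Mreg and Atp2b3, a plasma membrane calcium pump gene, and nearest to Anp32a, Nectin1, Rrp15 and Arap3. Of the 10, only the member 27.4 kb from Anp32a had H3K27ac in all 3 libraries.

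Peaks in both POU4F1 libraries and all 3 H3K27ac libraries were present at 25 members (1.04%), against 0.437% of comparison regions and 0.514% of all ISL1 regions of 2 or 3 lists. This difference was not tested. The best ranked was chr3:68664054-68665670, 25 kb from Il12a, an interleukin subunit gene, with a POU4F1 replicate 1 percentile of 0.149. Next came a member 115 kb from Fam43a, and then 4 members at gene starts, of Map3k12 (the DLK kinase of axon injury signalling), Fbrs, Gpbp1 and Herpud1 (an endoplasmic reticulum stress gene). Those 4 also carried H3K4me3 replicate 2, and they carried H3K27me3 as well, in 2 libraries at Gpbp1 and in 1 at each of the others. The member at Map3k12 had a weak POU4F1 replicate 1 peak, at percentile 74.2.

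H3K27me3 in all 3 libraries without any H3K27ac was found at 18 members (0.751%), near the 0.949% of all ISL1 regions of 2 or 3 lists. They included members classed as at a gene start in Barhl1, Ecel1 and Pgr. Barhl1 is a homeobox gene of inner ear hair cells, Ecel1 an endopeptidase gene of developing neurons, and Pgr encodes the progesterone receptor. These members lay 2.73, 0.882 and 1.91 kb from the nearest end of the gene, in that order. The annotated start near the members in Barhl1 and Pgr was therefore inside the gene. In Barhl1 (chr2:28910409-28911560) the POU4F1 percentile was 0.65 and the summits were 73 bp apart. Another lay inside Lhx2, a LIM homeobox gene (chr2:38356022-38357454), with peaks in both POU4F1 libraries and in ISL1_70 replicates 2 and 3. The remaining examples were 12.4 kb from Dbpht2 and 23.7 kb from Nos1, the neuronal nitric oxide synthase gene.

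Among members at gene starts, the best ranked was at Pkdcc, a secreted kinase gene (chr17:83212970-83215016), with ISL1 percentiles of 0.99, 2.51 and 2.29 and summits 5 bp apart. Those at Angptl2, a secreted angiopoietin-like protein, and Zkscan14, a zinc finger factor, had H3K27ac in at least 2 libraries. At Ptprt, a receptor phosphatase, no H3K27ac peak was found. Bhlhe22, a basic helix-loop-helix factor of neurons, had H3K27ac in 2 and H3K27me3 in 3 libraries (chr3:18053196-18055147), and its summits were 903 bp apart.

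At the level of genes, 1545 of 21887 protein-coding genes (7.06%) had a member in the gene body or within 10 kb, 187 of them 2 members and 66 at least 3, and 468 genes (2.14%) had one at the start. Gene lists of the tissue were counted against this share, and against members per Mb of gene body and flanks, because long genes hold more regions. Sensory neuron transcription factors had the highest density of the 14 lists: 16 of 37 had a member (43.2%), at 7.54 members per Mb against 1.28 over all genes, with a median gene length of 14.3 kb against 17.2 kb. ISL1 regions without POU4F1 were dense there too, at 30.2 per Mb against 9.06. Without ISL1_26 replicate 1 or ISL1_70 replicate 1, 12 of the 37 had a member (against 3.32% and 3.58% of all genes), and with POU4F1 replicate 2 in place of replicate 1, 5 had one (2.8% of all genes).

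The transcription factor genes with most members were Ebf1 and Nhlh1 with 4 each, then Casz1 and Ebf3 with 3. Nhlh1 is a gene of 5.3 kb, and its 4 members spanned 13.2 kb, chr1:172048328-172061542, with none of the comparison regions within 10 kb of the gene. All but 1 of these members were called in 3 ISL1 lists. At its start the member chr1:172057577-172058762 had ISL1 percentiles of 56.9 in ISL1_26 replicate 1, 3.36 in ISL1_70 replicate 1 and 97.1 in ISL1_70 replicate 2, a POU4F1 replicate 1 percentile of 0.038, and H3K27ac in 3 of 3 libraries. The other members of Nhlh1 had POU4F1 percentiles of 62.8, 34.3 and 16.8. POU4F1 replicate 2 had no peak in the member at the start. The sequence of this start is the first one shown above.

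Ebf1, an early B-cell factor gene that also acts in neuronal differentiation, held its 4 members 211 to 281 kb inside from its nearest annotated start. Their POU4F1 percentiles were 38.1, 0.385, 33.9 and 0.949, and each had H3K27ac in 1 or 2 libraries. The member at 0.385 had ISL1 percentiles of 59.1 in ISL1_26 replicate 1 and 44.6 in ISL1_70 replicate 1. That at 0.949 had 26.1 and 97.3 in the same libraries and 74.4 in ISL1_70 replicate 3. At Ebf3, of the same family, the member chr7:137243795-137245550 ranked best, with ISL1 percentiles of 7.21, 0.68 and 1.9 and a POU4F1 percentile of 4.77. Ebf1 also had 14 and Ebf3 9 comparison regions. Others of the list with a member were Gata3, Myt1, Myt1l, Onecut1 and Runx3 with 2, and Eya2, Pou4f1, Pou4f2, Prox1, Runx1, Sox11 and St18 with 1. Near Pou4f1 itself there were also 4 comparison regions.

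**Figure D5:**
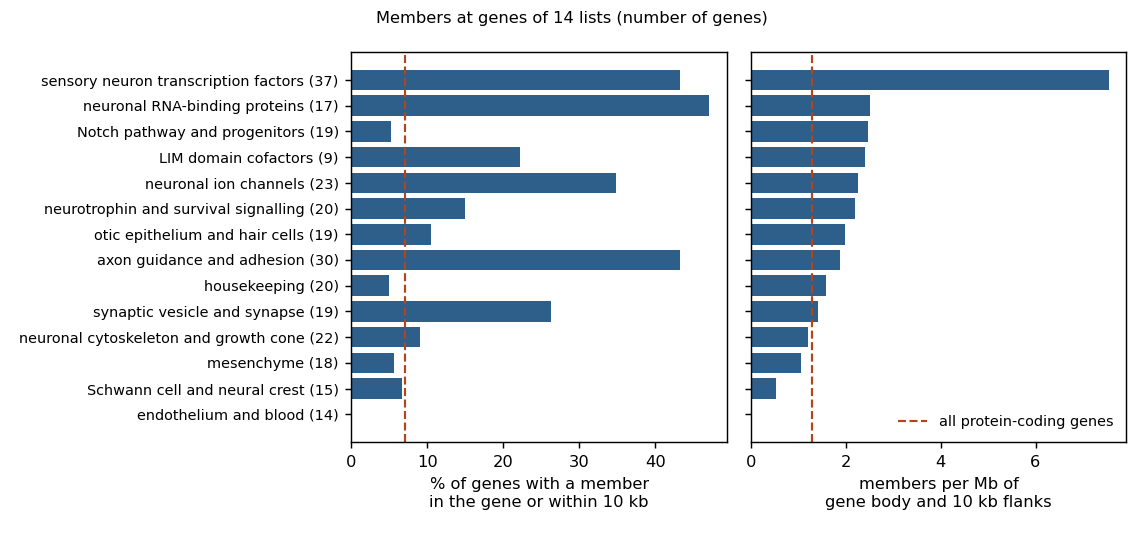
For each of 14 gene lists (number of genes in brackets), the percent of genes with a member in the gene body or within 10 kb (left) and the members per Mb of gene body and flanks (right); dashed lines give all protein-coding genes. Sensory neuron transcription factors reach 7.54 members per Mb against 1.28, while axon guidance genes, at a like share of genes, reach 1.87.

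Axon guidance and adhesion genes had a member at 13 of 30 (43.3%), but these are long genes (median 277 kb) and their density was 1.87 per Mb. Robo2, a receptor for SLIT proteins, held 4 members, of which chr16:74347223-74348855 had a POU4F1 percentile of 0.073 and H3K27ac in 1 library. Slit1, a SLIT ligand, and Efna5, an ephrin ligand, held 3 each. At Efna5 the member by the start, chr17:62881884-62883973, carried H3K27ac in 3 libraries and H3K4me3 replicate 2. Neuronal RNA-binding protein genes had a member at 8 of 17 (47.1%, 2.51 per Mb), with 4 in Celf2, 3 in Celf4 and 1 in Rbfox3, all splicing regulators. That count was 3 (17.6%) without ISL1_26 replicate 1 and 5 (29.4%) without ISL1_70 replicate 1 or replicate 2. With POU4F1 replicate 2 in place of replicate 1 it was 1 (5.88%), and 5 of the axon guidance genes had a member. In these 4 settings the share of all genes with a member also fell, to 3.32%, 3.58%, 6.11% and 2.8% in the same order. Counts of the lists below under these settings stand beside the same shares of all genes.

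Ion channel genes had a member at 8 of 23 (34.8%, 2.26 per Mb). Kcnq3, a potassium channel gene, had 2, of which chr15:66239546-66240274 had a POU4F1 percentile of 0.847. Its ISL1 percentiles were 59.3 in ISL1_26 replicate 1 and 44.6 in ISL1_70 replicate 1. Cacna2d2 and Cacna1c, calcium channel subunit genes, had 2 each. With POU4F1 replicate 2 the count of ion channel genes was 3. Synapse genes had a member at 5 of 19 (26.3%, 1.42 per Mb), at 3 without ISL1_26 replicate 1 or without ISL1_70 replicate 1, and at 1 with POU4F1 replicate 2. Slc17a6, the vesicular glutamate transporter VGLUT2 of sensory neurons, held 2 members and no comparison region. Its member at chr7:51628592-51630401 had a POU4F1 percentile of 0.581 and no H3K27ac, while the one at the start had H3K27ac and H3K27me3 in 2 libraries each. The ISL1 percentiles of the former were 1.65 in ISL1_26 replicate 1, 95.3 in ISL1_70 replicate 1 and 70.9 in ISL1_70 replicate 2. Nrxn3, a presynaptic adhesion gene of 1610 kb, held 3 members, and Nrxn2 held 1.

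Neurotrophin and survival genes had a member at 3 of 20 (15%, 2.19 per Mb), at 1 without ISL1_26 replicate 1, and at 2 without ISL1_70 replicate 1 or replicate 2. Ntrk2, the receptor for BDNF, held 2, of which chr13:58811184-58813094 had ISL1 percentiles of 0.458, 3.66 and 13.7 and a POU4F1 percentile of 56.7. Gfra1, a GDNF co-receptor, held 2, and Bcl2l1, an inhibitor of apoptosis, held 1. LIM cofactor genes had a member at 2 of 9: Ldb1, which bridges LIM factors such as ISL1, held 2, and the one at its start had a POU4F1 percentile of 0.618, and Ldb2 held 1. Without ISL1_26 replicate 1 or ISL1_70 replicate 1 a single gene of each of the LIM cofactor and cytoskeleton lists had a member, and with POU4F1 replicate 2 none had. Cytoskeleton genes had a member at 2 of 22 (9.09%, 1.21 per Mb). At Gap43, a growth cone protein, the member chr16:42340203-42341706 had a POU4F1 percentile of 0.228 and H3K27ac in 3 libraries, and the other gene, Map1b, had its member outside the gene, within 10 kb. That at Gap43 overlapped an end of the gene and had no POU4F1 replicate 2 peak.

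The lists for other cells and the housekeeping list lay near the 7.06% of all genes. A member was found at 1 of 19 Notch and progenitor genes (Jag1, a Notch ligand, with 2 members), 1 of 15 Schwann cell and neural crest genes (Nrg1), 1 of 18 mesenchyme genes (Pdgfrb), 0 of 14 endothelium and blood genes and 1 of 20 housekeeping genes (Gapdh), shares of 0% to 6.67%. Otic epithelium and hair cell genes had 2 of 19 (10.5%), Fgf10 and Pou4f3. At Pou4f3, a hair cell factor, the member lay 8.57 kb away with a POU4F1 percentile of 1.74. Its ISL1 peaks were weak, at percentiles 73.5 in ISL1_26 replicate 1 and 93.5 in ISL1_70 replicate 3, and it carried H3K27me3 in 2 libraries. The densities of these lists ran from 0 (endothelium) to 2.47 members per Mb (Notch), on both sides of the 1.28 of all genes. With 1 or 2 genes each, these counts also moved when a library was left out: without ISL1_26 replicate 1 no gene of the Schwann cell, otic or mesenchyme lists had a member, and without ISL1_70 replicate 1 none of the Schwann cell, mesenchyme or housekeeping lists, and 1 otic gene. No housekeeping gene had a member without ISL1_70 replicate 2, and 1 otic gene had one without ISL1_70 replicate 3. A comparison region was within 10 kb of 28.6% (endothelium) to 47.4% (Notch) of these genes, against 34.4% of all genes and 75.7% of the transcription factors. The other neuronal lists had comparison regions at 86.7% (axon guidance), 76.5% (RNA-binding), 75% (neurotrophin) and 73.9% (ion channels) of genes. For cytoskeleton, LIM cofactor and synapse genes it was 68.2%, 66.7% and 57.9%. Comparison regions in these lists ran from 6.58 (synapse) to 18.4 per Mb (neurotrophin), against 9.06 over all genes. Presence at neuronal genes was thus not particular to members. No test of the lists was made, and the counts say where members lie, not which genes they act on.

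Outside the lists, the genes with most members were long. Auts2, a gene of neuronal development, is 1110 kb long and held 10 members, with POU4F1 percentiles from 1.9 to 82.7, and 21 comparison regions. Gse1 held 8, Tenm4 (a teneurin) and Ttc28 6 each, and Ntm (neurotrimin), Prkce (a protein kinase C) and Chst8 (a sulfotransferase) 5 each. Kcnmb2, a potassium channel subunit gene, held 4 and no comparison region. Rtn4rl1, a Nogo receptor family gene, held 4 within 16.1 kb, and Tmem178b also had 4.

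Members were otherwise mostly single. Within 50 kb, 564 (23.5%) had another member, in 255 clusters, of which 38 had at least 3 members. Such a count was not made for the comparison regions. The largest cluster, 6 members over 128 kb nearest to Tle3, a Groucho family co-repressor gene, carried H3K27ac at 6 of 6. The share of ISL1 regions of 2 or 3 lists that were members ran from 10.3% on chromosome 11 to 17.1% (14.4 to 20.3) on chromosome 18 among the autosomes, and was 8.04% (5.5 to 11.6) on chromosome X. On chromosome Y 5 of 20 were members, all in 1 cluster of 63.3 kb, and 4 of these carried H3K27me3. MicroRNA hairpins were held by 2 members, Mir744 on chromosome 11 and Mir23b with Mir27b on chromosome 13 (chr13:63299832-63300928), each with H3K27ac in 2 libraries and no H3K27me3.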

How the data were processed

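Peak lists of 14 CUT&Tag libraries of mouse E11.5 CVG ganglia, 1 list per library without pooling of replicates, were used as the authors deposited them. Per the file headers (the peak names), MACS2 called the peaks, but its control and options are not stated. FastQC, Bowtie2, SEACR and build mm10 are named, without their roles, per the submitters' processing notes. The deposited columns hold each peak's fold enrichment (a ratio), the −log10 p and −log10 q, a score and the summit, as the authors' caller gave them. These values were used within a list only, for ranking and filtering. Lists end at a −log10 q of about 1, so a deeper or less noisy library gives more peaks and more overlaps.

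ISL1 peaks sharing at least 1 bp formed a region (autosomes, X and Y). Shares have 95% Wilson intervals. The 8 comparisons used Mantel-Haenszel odds ratios with 95% Robins-Breslow-Greenland intervals over 10 width classes. Those against ISL1 regions of 2 or 3 lists without POU4F1 replicate 1 also had strata of list number. The odds ratio was checked on simulated data (Python 3.11.15, numpy 2.4.6, pandas 2.3.3, scipy 1.17.1). Exact sign-flip permutation tests over libraries were made where a mark had 3 libraries. Gene starts came from the RefSeq promoter table for 17492 genes (GRCm38.p6) and from both gene ends for the other 4395, which therefore include 3′ ends. All 282 genes of the 14 lists matched. With no genome sequence used here, the planned motif windows at summits were replaced by promoters. Regions were named by the lowest mean percentile within fixed classes, and genes by the most members, up to 3 per list and 10 outside the lists. A region that the rule also named is not reported here. Members, lists and rules were chosen with earlier results of these data known. Alternatives were: summit windows of 100 bp each side, −log10 q of at least 2, no strata, and each library left out. Added after seeing the data were the rank strata, the other POU4F1 and H3K4me3 library, chromosomes 1 to 19, splits by place, other gene start definitions, and the left-out ISL1 libraries for gene lists and for the comparisons with 4-list regions and POU4F1 peaks.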

Additional observations from a re-analysis of the deposited data

How the results depend on the processing

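The H3K27ac difference between members and ISL1 regions without POU4F1 replicate 1 kept its direction and call under all 17 alternatives (odds ratio 1.56 to 2.92), as did those of POU4F1 peaks (11.1 to 16.1) and of members in 3 lists against 2 (1.35 to 2.55) under 10 each. Over left-out libraries the odds ratio ran from 1.05 to 1.25 for H3K4me3, from 0.936 to 1.2 for H3K27me3, from 1.15 to 1.4 for POU4F1 replicate 2, from 1.02 to 1.08 for gene starts and from 0.635 to 0.884 for H3K27ac against 4-list regions, and the number of members from 1068 to 2075. H3K27me3 turned below 1 with −log10 q of at least 2 (0.976), without ISL1_26 replicate 1 (0.96) and without H3K27me3 replicate 1 (0.936), and was called without strata (1.22) and with ISL1 rank strata (1.17). POU4F1 replicate 2 was called in summit windows (1.51), without strata (1.41) and with rank strata (1.26). Gene starts were no longer called with −log10 q of at least 2 (1.11), width and rank strata (1.12), either gene end (1.06) or the promoter table alone (1.11). Against 4-list regions H3K27ac was called in summit windows (0.704) and without strata (0.281). The number of regions was 885 when any POU4F1 replicate 1 summit within 100 bp of any ISL1 summit was required in place of peak overlap (875 members by the best POU4F1 summit), and 624 with POU4F1 replicate 2, and the summit distance was 273 bp to the best ISL1 summit. The cause of these changes was not tested. Motif windows around summits were not run. No paired analysis was possible because the replicate numbers join libraries of different antibody targets and every comparison is between classes of regions within a library. The depth is unknown, so the absence of a peak cannot be told apart from a shallow library, and most members rest on POU4F1 replicate 1 alone.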
